A study of Mus musculus with 12 samples.

Results

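The genes described here are 46 genes of the cell cycle and of DNA replication, out of 22202 protein-coding genes on chromosomes 1 to 19 and X of the mm9 genome. They were taken by name as genes of these functions, with earlier results of these data known, and all 46 were found in the annotation. The data are chromatin immunoprecipitation sequencing (ChIP-seq) libraries of 6 histone modifications in C2C12, a line of mouse muscle precursor cells of strain C3H at passages 15 to 18. Myoblasts were near-confluent in 10% serum, and myotubes had formed over about 5 days without serum and had been freed of unfused cells by light trypsin treatment. The labels give no other genotype or treatment for either group, and no sequenced input control was used here. Each mark was sequenced in 1 library per cell type, so there are no replicates, no p-values were computed, and a difference between the cell types cannot be told apart from a difference between their libraries.

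A dividing cell runs through this gene set in order. D-type cyclins with their kinases Cdk4 and Cdk6 inactivate the retinoblastoma protein and so release E2F transcription factors. Cyclins E and A with Cdk2 then drive DNA synthesis, for which the Mcm helicase is loaded on origins by Cdc6 and Cdt1, and cyclin B with Cdk1 drives mitosis. Myoblasts leave this cycle for good when they fuse into myotubes. At active genes H3K4me3 and H3K27ac lie around the transcription start site (TSS), H3K4me2 covers the same region more broadly, H3K4me1 flanks it and is also found at enhancers, and H3K36me3 covers the transcribed body. H3K27me3 is the mark of Polycomb repression.

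Reads were counted within 1 kb either side of 1 TSS per gene, here called the promoter, and H3K36me3 also from 1 kb downstream of the TSS to the gene end, here called the gene body. A level is given as fold over the genome mean of the same library. The change between cell types is given as the relative ratio, which is the myotube to myoblast ratio at equal total reads divided by the median ratio of all genes tested, so that a gene behaving like the median gene has a value of 1. The median ratio at equal total reads was 0.866 for H3K4me3, 0.593 for H3K4me2, 0.871 for H3K4me1, 0.570 for H3K27ac and 1.02 for gene body H3K36me3. A gene was tested when both libraries together held at least 20 reads and at least 2 times their genome means, and it was called lower or higher at a relative ratio of 0.5 or 2. Intervals are at 95% and cover counting error only. Libraries held 1858771 to 7033100 reads in myoblasts and 3298694 to 6271899 in myotubes, with the myoblast H3K27ac library the smallest, and the genome mean lay between 0.727 and 2.75 reads per kb.

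The labels of the cell types were checked with H3K4me3 at 12 muscle genes, among them the regulator Myog, the creatine kinase gene Ckm and the actin gene Acta1. Their median level was 2.31-fold in myoblasts and 34.3-fold in myotubes, and 10 of the 12 were called higher. Des, which encodes desmin, stood at 33.2-fold and 32.6-fold, and Chrna1, a subunit of the acetylcholine receptor, at 38.3-fold and 66.3-fold. Of 6 genes of fat, bone and cartilage cells, Adipoq, Bglap and Acan stayed at or under 2.77-fold in both cell types. Pparg, Runx2 and Sox9 were marked in both, from 24.4-fold to 59.95-fold in myoblasts and from 13.96-fold to 29.5-fold in myotubes. How many unfused cells remained among the myotubes was not measured, and fewer cells that carry a mark cannot be told apart from less of the mark in each cell.

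The active marks were lower over most of the 46 genes in myotubes. H3K4me3 at their promoters went from a median of 37.1-fold (95% interval 32.3 to 41.0) in myoblasts to 17.8-fold (13.96 to 23.3) in myotubes. All 46 were tested, 20 were called lower against 4.56% of all genes tested, and none was called higher against 4.69%. H3K27ac went from 27.9-fold (23.4 to 44.7) to 5.01-fold (3.25 to 11.1), with 28 of 44 tested genes called lower against 13% of all genes and 2 called higher against 14.6%. Gene body H3K36me3 went from 6.92-fold (6.15 to 9.05) to 2.51-fold (2.03 to 3.32), with 30 of 45 called lower against 7.63% and none called higher against 6.65%.

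H3K4me3 had a median relative ratio of 0.533 (0.467 to 0.681), H3K27ac one of 0.399 (0.259 to 0.519) and gene body H3K36me3 one of 0.398 (0.286 to 0.486). The counting interval of the single gene lay below 1 in 33 genes for H3K4me3, in 33 for H3K27ac and in 41 for H3K36me3. Over all genes tested this was so for 14%, 22.2% and 32.2%. For H3K27ac it lay above 1 at 2 genes, Ccnd3 and Cdk2, against 25% of all genes. Read without the division by the median gene, at equal total reads, the medians were 0.462 for H3K4me3, 0.227 for H3K27ac and 0.405 for H3K36me3. H3K36me3 therefore barely depended on the scaling, while H3K27ac was lower still without it.

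**Figure D1:**
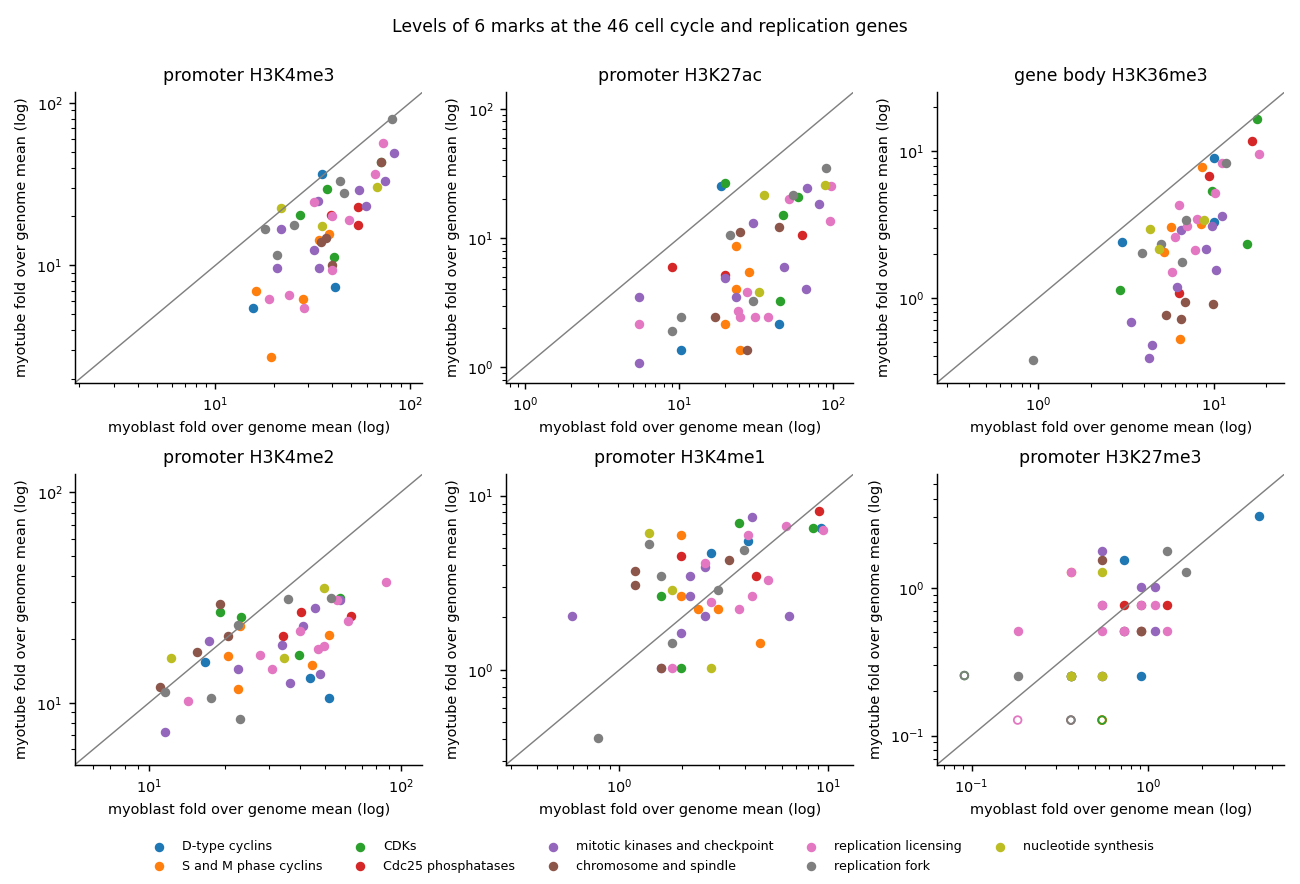
Level of each mark at the 46 genes in myoblasts (horizontal) and myotubes (vertical), as fold over the genome mean on log axes, with 1 point per gene coloured by role, the grey line marking equal levels and open points marking a library without a read, drawn at the fold of 0.5 reads. Nearly all points of H3K4me3, H3K27ac and H3K36me3 lie below the line, with medians of 37.1, 27.9 and 6.92 in myoblasts and 17.8, 5.01 and 2.51 in myotubes, while H3K27me3 stays at or under 1.79-fold but for Ccnd2.

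All 3 marks could be tested at 43 of the 46 genes. The relative ratio was below 1 for each of the 3 at 36 of them, and 12 (27.9%) were called lower for each, against 1.03% of the 8465 genes for which all 3 were tested. These 12 were the cyclin genes Ccnd1, Ccne2, Ccna2 and Ccnb1, the mitotic kinase genes Cdk1 and Plk1, Cdc20, which activates the anaphase-promoting complex, the topoisomerase gene Top2a, the proliferation marker gene Mki67, and the licensing genes Mcm5, Mcm6 and Cdc6. A further 14 genes were called lower for 2 of the marks, against 2.93% of all genes, and 11 for 1, against 14.5%. The 6 genes called lower for none, against 81.5% of all genes, were Ccnd3, Cdk2, Cdk4, Mcm7, Fen1 and Rrm1. The genes not tested for every mark were Bub1b and Mcm3, with too few H3K27ac reads, and Pola1, whose body of 326389 bp lay below the genome mean of H3K36me3 in both libraries.

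**Figure D2:**
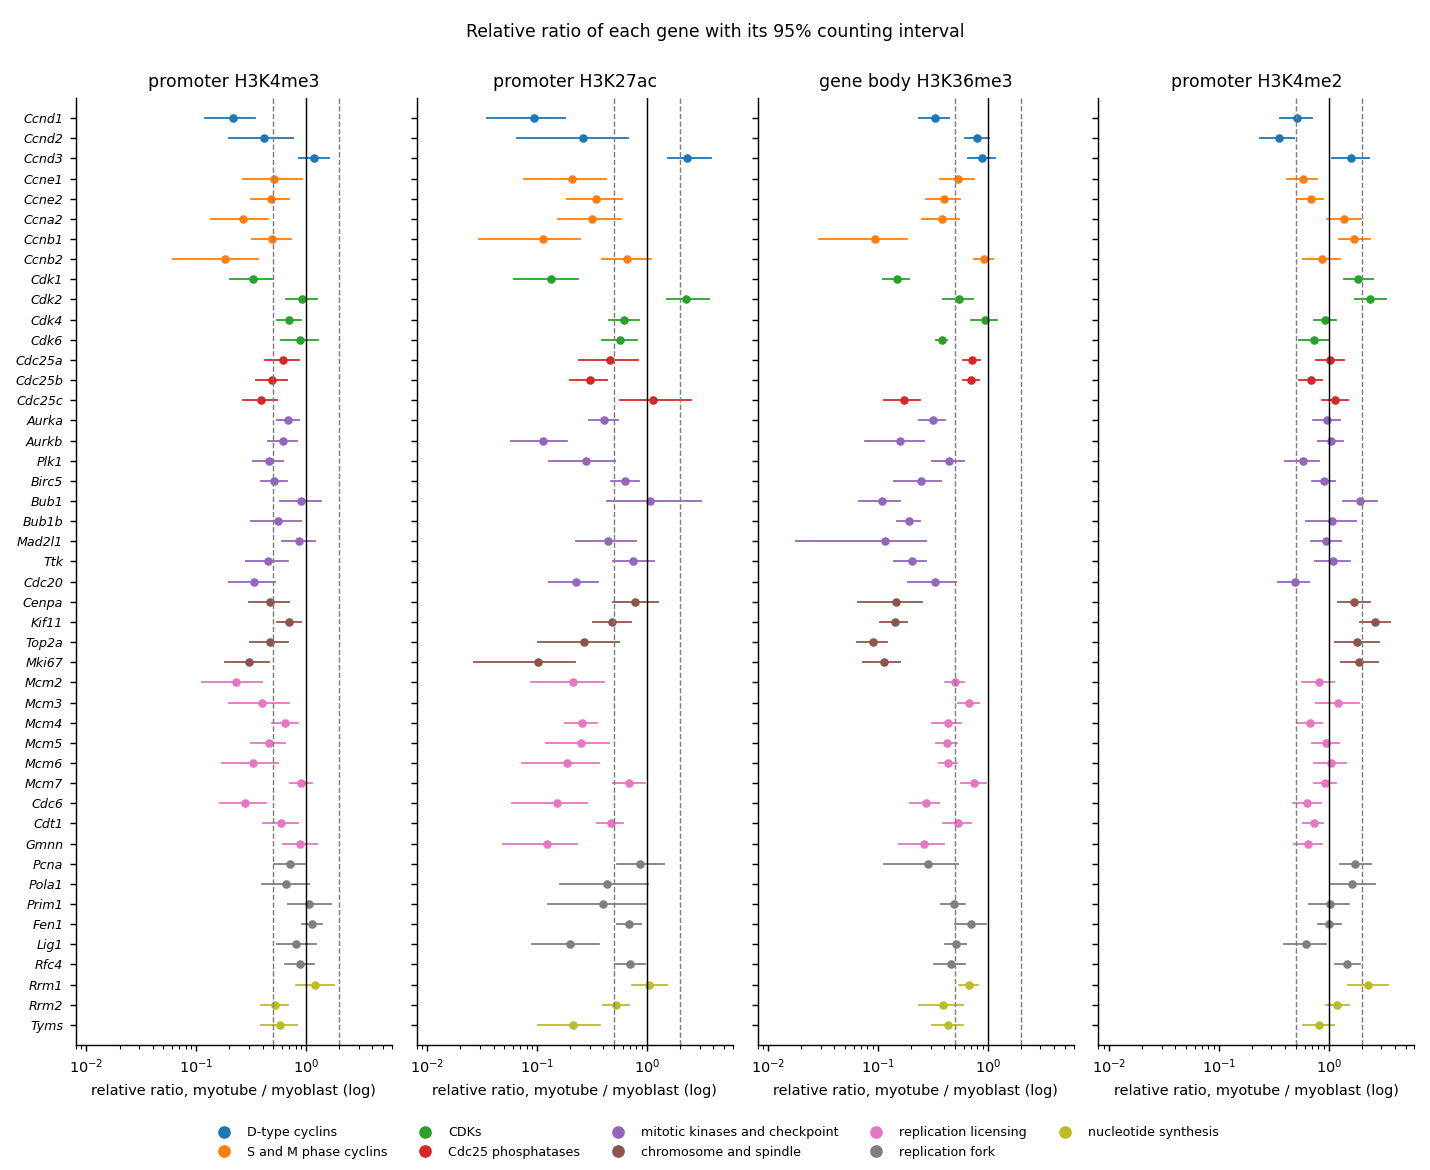
Relative ratio of each gene (myotube over myoblast, relative to the median gene, log axis) for 4 marks, with bars for the 95% counting interval, colours for the role, a solid line at 1 and dashed lines at 0.5 and 2. Points for H3K4me3, H3K27ac and H3K36me3 lie mostly left of 1, with Ccnd3 and Cdk2 right of 2 for H3K27ac, whereas H3K4me2 points lie on both sides of 1.

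The D-type cyclins, which couple growth signals to the cycle, were not alike. The Ccnd1 promoter held 89 H3K4me3 reads in myoblasts and 19 in myotubes, 41.0-fold and 7.37-fold, a relative ratio of 0.216 (0.119 to 0.343). Its H3K27ac went from 65 to 8 reads, 44.7-fold to 2.17-fold, which gave the lowest H3K27ac ratio of the set, 0.0940 (0.0352 to 0.177). Its body H3K36me3 went from 10.1-fold to 3.32-fold, a ratio of 0.330. Ccnd2 was marked less from the start, with H3K4me3 at 15.7-fold and 5.43-fold and H3K27ac at 10.3-fold and 1.35-fold. Its body H3K36me3, 3.00-fold and 2.42-fold, had a ratio of 0.798 (0.617 to 1.01), and that interval includes 1.

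Ccnd3 differed from both. H3K4me3 at its promoter stood at 35.5-fold in myoblasts and 36.5-fold in myotubes, a ratio of 1.18 (0.868 to 1.62). Its H3K27ac was 18.6-fold from 27 reads and 25.2-fold from 93 reads, a ratio of 2.32 (1.53 to 3.79), the highest of the set. At equal total reads this ratio was 1.32 and no longer called, since H3K27ac was lower at the median gene. Body H3K36me3 was 10.0-fold and 8.98-fold, a ratio of 0.885 (0.660 to 1.17). The TSS with the most H3K4me3 lies 88416 bp inside the annotated Ccnd3 gene, and with the annotated 5 prime end in its place the ratio was 2.58 for H3K4me3 and 5.76 for H3K27ac.

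The sequence upstream of the TSS is shown for Mki67 and Ccnb1, with low H3K27ac ratios, and for Ccnd3 and Cdk2, with the highest, as the 250 bases that end at the base before the TSS, read 5 prime to 3 prime on the strand of the gene. In mm9 these are chr7:142908063-142908312 for Mki67, chr13:101556358-101556607 for Ccnb1 and chr10:128142108-128142357 for Cdk2, all on the minus strand, and chr17:47730166-47730415 for Ccnd3 on the plus strand. Capitals mark matches on either strand to 3 kinds of motif that are known from cell cycle promoters, the E2F site (TTTCCCGC, TTTCGCGC, TTTGCCGC or TTTGGCGC), the cell cycle homology region or CHR (TTTGAA), and the CCAAT box. None of these motifs overlaps another in the sequences shown. The GC content of the 4 runs lies between 62% and 71.6%.
Mki67: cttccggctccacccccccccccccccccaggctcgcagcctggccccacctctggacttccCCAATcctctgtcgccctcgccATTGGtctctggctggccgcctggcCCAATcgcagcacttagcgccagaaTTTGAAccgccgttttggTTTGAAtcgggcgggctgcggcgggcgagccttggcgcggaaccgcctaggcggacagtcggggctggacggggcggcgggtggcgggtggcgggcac
Ccnb1: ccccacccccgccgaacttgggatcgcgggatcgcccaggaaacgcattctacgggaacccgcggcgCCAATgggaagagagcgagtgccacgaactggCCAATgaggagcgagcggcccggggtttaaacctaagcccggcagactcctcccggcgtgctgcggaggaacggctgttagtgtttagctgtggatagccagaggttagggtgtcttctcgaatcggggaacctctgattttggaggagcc
Ccnd3: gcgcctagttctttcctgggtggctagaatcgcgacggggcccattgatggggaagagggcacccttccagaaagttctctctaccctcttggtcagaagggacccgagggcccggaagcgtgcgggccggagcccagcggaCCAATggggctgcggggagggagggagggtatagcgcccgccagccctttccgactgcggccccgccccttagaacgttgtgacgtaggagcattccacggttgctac
Cdk2: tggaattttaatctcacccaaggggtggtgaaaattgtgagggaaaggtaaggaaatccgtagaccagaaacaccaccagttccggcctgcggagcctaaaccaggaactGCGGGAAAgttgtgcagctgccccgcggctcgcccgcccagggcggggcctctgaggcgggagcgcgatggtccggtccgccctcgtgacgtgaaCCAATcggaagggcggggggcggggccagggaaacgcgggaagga

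The sequence of Mki67, with a low ratio, holds 2 CHR matches at -116 and -98 and 3 CCAAT matches between -188 and -141, counted from the TSS to the first base of the match. Ccnb1 holds 2 CCAAT matches, at -183 and -151. Of the genes with a high ratio, Ccnd3 holds 1 CCAAT match at -108, and Cdk2 holds 1 E2F match at -140 and 1 CCAAT match at -45.

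Over all 46 genes, from 250 bases before to 50 bases after the TSS, 13 (28.3%) held an E2F match, against 2.86% of the same windows of all 22202 genes. A CHR match was held by 16 (34.8%) against 15.5%, and a CCAAT match by 30 (65.2%) against 36.6%. The E2F matches stood in Mcm3, Mcm4, Mcm5, Mcm6 and Mcm7, in Cdc6, Cdt1 and Gmnn, and in Cdk1, Cdk2, Pola1, Lig1 and Rrm2, so they lay mostly in genes of replication. The CHR matches stood mostly in genes of mitosis, among them Cdk1, Plk1, Aurka, Aurkb, Bub1b, Ttk, Cdc20, Cenpa, Kif11, Top2a and Mki67. Cdk1 was the 1 gene with both. The windows of the 46 genes had a median GC content of 62.3%, against 56.3% over all genes, and its part in these shares was not tested.

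The 16 genes with a CHR match had a median H3K36me3 ratio of 0.182 (0.142 to 0.441), and the 29 tested genes without one 0.436 (0.382 to 0.541). Their H3K4me3 medians were 0.453 (0.327 to 0.615) and 0.625 (0.512 to 0.870). For H3K36me3 and H3K4me3 these intervals overlap. Genes with an E2F match had an H3K27ac median of 0.253 (0.150 to 0.519) over 12 genes, and those without 0.420 (0.265 to 0.650) over 32, which overlap as well. The presence of these letters describes the windows and does not show that a factor was bound.

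Among the cyclins of S phase and mitosis, Ccna2, the cyclin of S phase and G2, and Ccnb1, a cyclin of mitosis, were called lower for all 3 marks. Ccna2 had H3K4me3 at 28.1-fold and 6.21-fold, a ratio of 0.266 (0.137 to 0.447), H3K27ac at 23.4-fold and 4.06-fold, and body H3K36me3 at 8.45-fold and 3.21-fold. Ccnb1 had H3K4me3 at 34.1-fold and 14.4-fold, a ratio of 0.492 (0.318 to 0.730). Its H3K27ac fell to 5 reads from 36, a ratio of 0.112 (0.0293 to 0.245), and its body H3K36me3 to 6 reads from 119, 6.41-fold to 0.527-fold, a ratio of 0.0935 (0.0291 to 0.181). In myotubes the value of the Ccnb1 body was below the genome mean of the library, but its counting interval includes that mean.

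Ccnb2, the other B-type cyclin measured, separated the marks instead. It had the lowest H3K4me3 ratio of the set, 0.181 (0.0613 to 0.364), from 42 reads in myoblasts and 7 in myotubes, 19.4-fold and 2.72-fold. Its body H3K36me3, however, was 8.54-fold and 7.88-fold, a ratio of 0.910 (0.748 to 1.10), and its H3K27ac ratio of 0.650 (0.388 to 1.08) has an interval that includes 1. The E-type cyclins, which start S phase, had H3K4me3 ratios of 0.512 for Ccne1 and 0.474 for Ccne2, H3K27ac ratios of 0.207 and 0.345, and H3K36me3 ratios of 0.534 and 0.398.

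The cyclin-dependent kinases differed among themselves. Cdk1, the kinase of mitosis, had H3K4me3 at 40.6-fold and 11.2-fold, a ratio of 0.327 (0.203 to 0.492). H3K27ac went from 66 to 12 reads, 45.4-fold to 3.25-fold, a ratio of 0.134 (0.0617 to 0.234), and body H3K36me3 from 15.5-fold to 2.33-fold, a ratio of 0.150 (0.111 to 0.193). Cdk2, the kinase of S phase, had H3K4me3 at 37.4-fold and 29.5-fold, a ratio of 0.912 (0.657 to 1.26), and H3K27ac at 19.95-fold and 26.5-fold, a ratio of 2.28 (1.53 to 3.66). That H3K27ac ratio was 1.30 at equal total reads and was then not called. Its body H3K36me3 was nevertheless lower, 9.82-fold and 5.34-fold, a ratio of 0.541 (0.386 to 0.729).

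Cdk4 and Cdk6 are both partners of the D-type cyclins. Cdk4 kept the highest body H3K36me3 of the set in myotubes, 17.8-fold and 16.7-fold, a ratio of 0.930 (0.701 to 1.21). Its body of 3053 bp is overlapped by another gene, Tspan31, as those of Ccnd3 and Mcm7 are by Bysl and Cops6, so the H3K36me3 of these 3 genes cannot be told apart from that of their neighbours. In all, 12 of the 46 bodies are overlapped by another gene, among them those of Ccnd1, Ccne2, Ccna2, Cdc20 and Cdc25c. The same limit holds for each of the 12. Without them the median H3K36me3 ratio was 0.390 over 33 genes. Cdk6 had H3K36me3 at 2.94-fold and 1.13-fold over a body of 178326 bp, a ratio of 0.379 (0.335 to 0.426). At the promoter the pair was more alike, with H3K4me3 ratios of 0.702 (0.543 to 0.899) for Cdk4 and 0.874 (0.590 to 1.29) for Cdk6, and H3K27ac ratios of 0.618 and 0.562. The Cdc25 phosphatases, which activate these kinases, had H3K36me3 ratios of 0.708 for Cdc25a, 0.702 for Cdc25b and 0.173 (0.113 to 0.243) for Cdc25c. Cdc25c, which acts at entry into mitosis, was the lowest of the 3 for H3K4me3 as well, 0.383, but had an H3K27ac ratio of 1.13 (0.563 to 2.52) from 13 and 22 reads.

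Genes of mitosis had the lowest body H3K36me3. All 9 genes of the mitotic kinases and the spindle checkpoint were called lower, against 7.63% of all genes. Their median ratio was 0.202, from 0.110 (0.0667 to 0.159) for Bub1, a checkpoint kinase, to 0.441 for Plk1. Bub1 bodies held 365 reads in myoblasts and 24 in myotubes, 4.46-fold and 0.479-fold. The same 9 genes had a median H3K4me3 ratio of 0.549, and 3 of them were called lower, against 4.56% of all genes. These were Plk1 at 0.456, Cdc20 at 0.337 and the checkpoint kinase gene Ttk at 0.451. For H3K27ac 5 of 8 were called lower, against 13% of all genes. Among them was Aurkb, the kinase of the chromosomal passenger complex, with 97 reads in myoblasts and 15 in myotubes and a ratio of 0.113. Bub1 had an H3K4me3 ratio of 0.890 (0.573 to 1.37) and an H3K27ac ratio of 1.07 (0.431 to 3.12), so its promoter marks did not follow its body. Birc5, which encodes survivin, Aurka and Mad2l1 had H3K27ac ratios of 0.634, 0.403 and 0.437.

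The 4 chromosome and spindle genes were all called lower for H3K36me3, against 7.63% of all genes, with a median of 0.127. Top2a, the topoisomerase that untangles chromosomes, had the lowest ratio of the set, 0.0907 (0.0645 to 0.120), from 830 reads in myoblasts and 46 in myotubes, 9.98-fold and 0.902-fold. Its H3K4me3 was 36.9-fold and 14.7-fold, a ratio of 0.467 (0.305 to 0.687), and its H3K27ac 17.2-fold and 2.44-fold, a ratio of 0.265 (0.102 to 0.550). Mki67 was close to it, with body H3K36me3 at 6.49-fold and 0.718-fold, a ratio of 0.112 (0.0730 to 0.157), H3K4me3 at 39.7-fold and 10.1-fold, a ratio of 0.301 (0.182 to 0.460), and H3K27ac at 27.5-fold and 1.35-fold, a ratio of 0.101 (0.0266 to 0.218). The spindle motor gene Kif11 and the centromeric histone gene Cenpa had H3K36me3 ratios of 0.142 and 0.146, and H3K4me3 ratios of 0.702 and 0.467. In myotubes the values of body H3K36me3 of Top2a, Mki67, Kif11 and Cenpa were below the genome mean. The counting intervals of Top2a, Mki67 and Cenpa include that mean.

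The Mcm2 to Mcm7 genes encode the 6 subunits of the replicative helicase, and their H3K36me3 ratios were higher than those of most mitotic genes. H3K36me3 was 10.2-fold and 5.18-fold for Mcm2, 6.38-fold and 4.33-fold for Mcm3, and 6.05-fold and 2.61-fold for Mcm4. It was 8.02-fold and 3.43-fold for Mcm5, 7.05-fold and 3.09-fold for Mcm6, and 11.2-fold and 8.37-fold for Mcm7. The ratios ran from 0.423 (0.335 to 0.523) for Mcm5 to 0.739 (0.564 to 0.95) for Mcm7, and Mcm4, Mcm5 and Mcm6 were called lower, while Mcm2, at 0.501, fell just outside the threshold.

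At the promoters the Mcm genes differed more. H3K4me3 was 28.6-fold and 5.43-fold for Mcm2, a ratio of 0.231 (0.113 to 0.396), 18.9-fold and 6.21-fold for Mcm3, a ratio of 0.393, and 24.0-fold and 6.59-fold for Mcm6, a ratio of 0.330. It was 48.9-fold and 19.01-fold for Mcm5, a ratio of 0.454, 65.9-fold and 36.5-fold for Mcm4, a ratio of 0.641, and 72.9-fold and 56.2-fold for Mcm7, a ratio of 0.891 (0.706 to 1.12). H3K27ac ratios were 0.211 for Mcm2, 0.253 for Mcm4, 0.252 for Mcm5, 0.186 for Mcm6 and 0.681 (0.487 to 0.951) for Mcm7. Mcm3 had 8 H3K27ac reads in each library. Mcm4 and Mcm7 each share their promoter with a gene on the opposite strand, Prkdc at 466 bp and Ap4m1 at 184 bp, whose marks cannot be told apart from theirs.

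The licensing factors that load or restrain the helicase were lower too. Cdc6 had an H3K4me3 ratio of 0.279 (0.165 to 0.430), an H3K27ac ratio of 0.150 and an H3K36me3 ratio of 0.272. Gmnn, which encodes the inhibitor geminin, had an H3K27ac ratio of 0.123 (0.0490 to 0.230), from 55 and 9 reads, and an H3K36me3 ratio of 0.264, but an H3K4me3 ratio of 0.875 (0.612 to 1.25). Cdt1 had ratios of 0.591, 0.465 and 0.529 for H3K4me3, H3K27ac and H3K36me3. Over the 9 licensing genes the median H3K27ac ratio was 0.232, the lowest median of any role. Of the 8 tested 7 were called lower, against 13% of all genes.

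Genes of the replication fork had the highest median H3K4me3 ratio of any role, 0.842. None of the 6 was called lower, which is near the 4.56% of all genes. Pcna, the sliding clamp of the polymerases, had H3K4me3 at 45.7-fold and 27.9-fold, a ratio of 0.709 (0.514 to 0.966), and H3K27ac at 21.3-fold and 10.6-fold, a ratio of 0.862 (0.528 to 1.44). Its body, 3019 bp, held 55 and 9 H3K36me3 reads, 6.63-fold and 1.77-fold, a ratio of 0.286 (0.114 to 0.535). Fen1, the flap nuclease, had the highest H3K4me3 in myotubes of all 46 genes, 81.2-fold and 79.5-fold, a ratio of 1.13 (0.920 to 1.39), at a promoter it shares with a gene on the opposite strand 54 bp away.

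Among the other fork genes, H3K4me3 ratios were 1.07 for the primase gene Prim1, 0.870 for the clamp loader gene Rfc4 and 0.815 for the ligase gene Lig1. Their H3K36me3 ratios were 0.486, 0.459 and 0.514. Lig1 shares its promoter with a gene on the opposite strand 672 bp away. It held 51 H3K4me3 reads upstream and 4 downstream in myoblasts, and 45 and 1 in myotubes. Its promoter marks cannot be told apart from those of that gene. The polymerase gene Pola1 had the lowest H3K4me3 ratio of the fork genes, 0.654 (0.394 to 1.05), and its body was not tested. Of the genes of deoxynucleotide synthesis, Rrm1, the large subunit of ribonucleotide reductase, had the highest H3K4me3 ratio of the set, 1.19 (0.801 to 1.80), with H3K27ac at 1.04 and H3K36me3 at 0.671. The small subunit Rrm2 had ratios of 0.518, 0.519 and 0.390, and the thymidylate synthase gene Tyms 0.573, 0.211 (0.102 to 0.371) and 0.436.

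The lower promoter marks were unevenly spread around the TSS. In myoblasts 65.0% of the H3K4me3 reads within 1 kb of the TSS of the 46 genes lay downstream of it, and in myotubes 48.1%, while over all genes tested the share was 63.1% and 61.0%. The share was lower in myotubes at 41 of the 46 genes, against 57.9% of all genes. At equal total reads, the summed reads had a myotube to myoblast ratio of 0.780 upstream and 0.390 downstream. For H3K27ac the downstream share was 55.8% and 38.6%, lower at 39 genes against 59.2% of all genes, and the ratio was 0.367 upstream and 0.182 downstream. Proteasome genes, a housekeeping set of 31, had H3K4me3 shares of 71.7% and 70.4%.

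Single genes show the shift. Cdk1 held 6 H3K4me3 reads upstream and 82 downstream in myoblasts, and 10 upstream and 19 downstream in myotubes. Ccnb1 went from 11 upstream and 63 downstream to 16 and 21, and Pcna from 30 and 69 to 44 and 28. For all 3, chosen after their values were seen, the upstream count was higher in myotubes and the downstream count lower. Over the 46 genes at equal total reads, H3K4me3 was lower in myotubes at all 46 downstream, against 68% of all genes tested, and at 33 upstream, against 55.5%, so upstream it was higher at 13. Mcm7 was an exception, with 80 upstream and 78 downstream in myoblasts and 71 and 74 in myotubes. The exceptions for H3K4me3 were Ccne1, Ccne2, Bub1b, Mcm2 and Mcm7.

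The mean profile of the 46 genes had its H3K4me3 maximum at 300 bp downstream of the TSS in myoblasts, 72.4-fold, and at 500 bp upstream in myotubes, 31.0-fold. The H3K27ac maximum was at 300 bp downstream, 66.4-fold, and at 300 bp upstream, 17.8-fold. Over all promoters tested the maximum of both marks stayed 300 bp downstream in both cell types, 56.8-fold and 45.1-fold for H3K4me3. The mean profile adds up reads, so genes with many reads weigh most in it. Counted by gene, 37 of the 46 held more H3K4me3 reads downstream than upstream in myoblasts, and 24 in myotubes. Of the 11353 genes tested, 8650 and 8231 did so. For H3K27ac it was 32 and 16 of the 46, and 7153 and 6653 of 10726. In the 40 genes with no other protein-coding TSS within 1 kb, the H3K4me3 share downstream was 68.8% in myoblasts and 53.3% in myotubes. Whether upstream reads belong to a neighbouring gene was not tested.

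**Figure D3:**
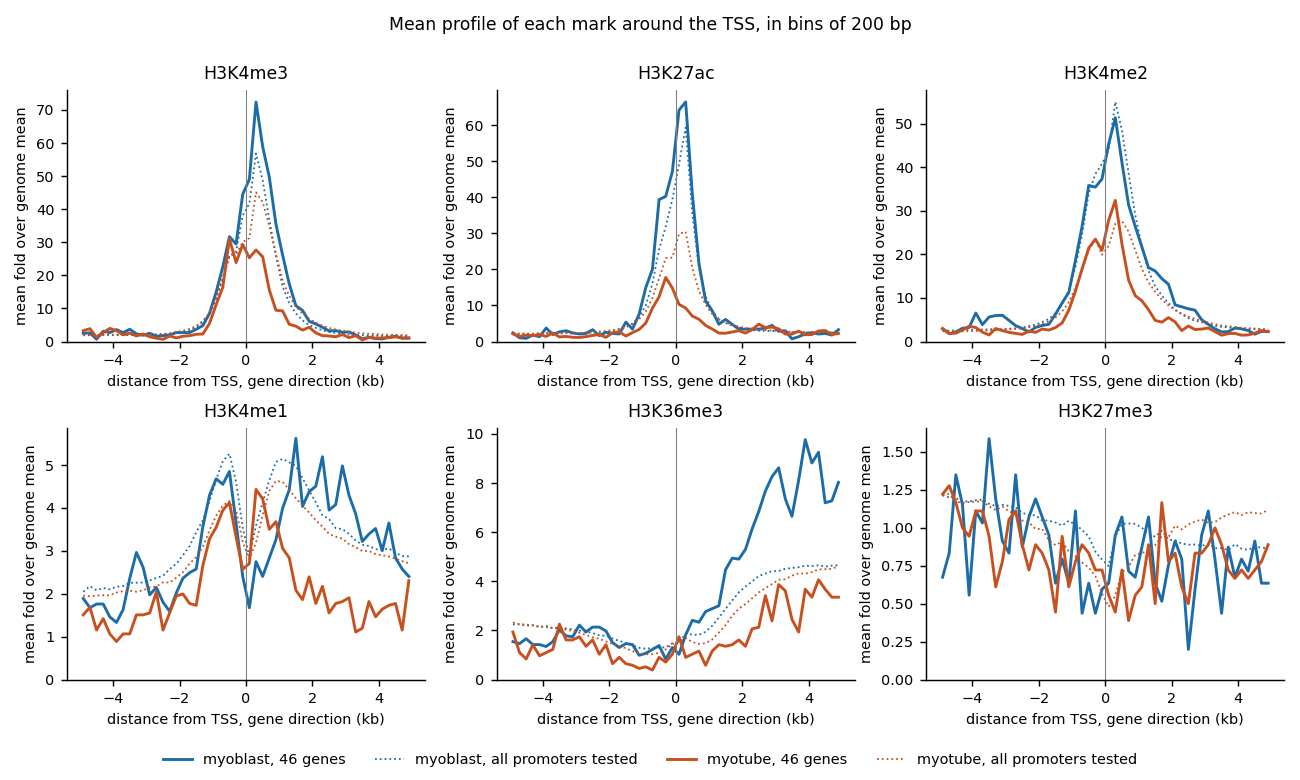
Mean level of each mark in bins of 200 bp up to 5 kb from the TSS, in the direction of the gene, for the 46 genes (solid) and for all promoters tested for that mark (dotted), in myoblasts (blue) and myotubes (orange), as fold over the genome mean. H3K4me3 and H3K27ac of the 46 genes have their maxima, 72.4 and 66.4, downstream of the TSS in myoblasts. In myotubes the first 1 kb downstream is lower, at a mean of 20.7 and 7.46 against 53.1 and 40.9 in myoblasts. The highest bins in myotubes, 31.0 and 17.8, lie upstream of the TSS.

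**Figure D4:**
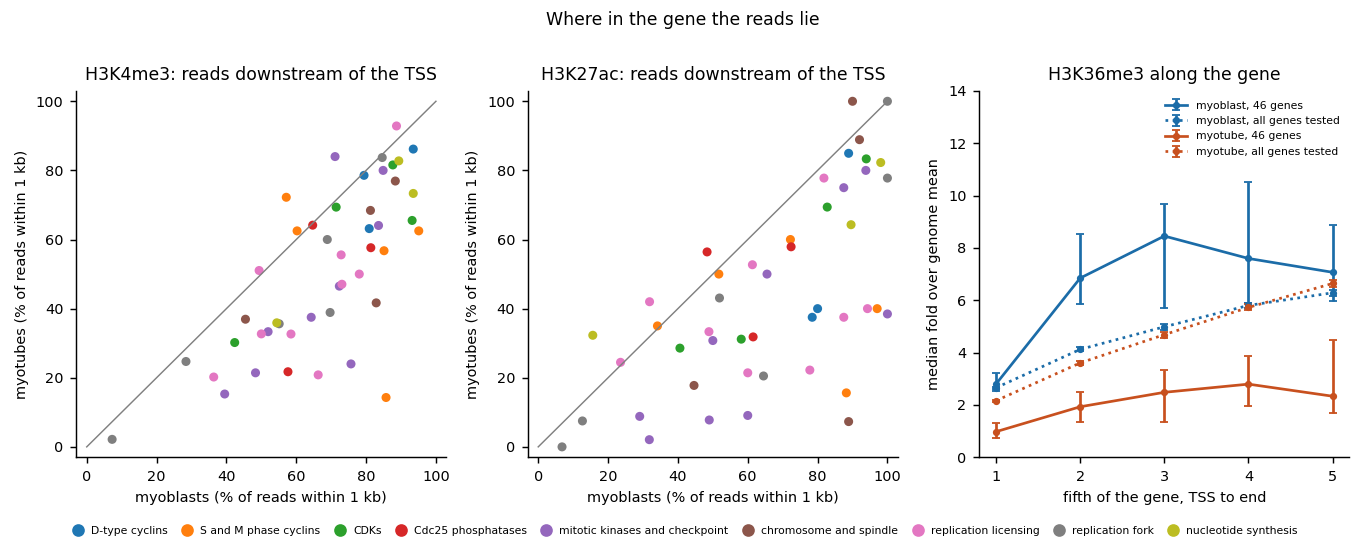
Left and middle, share of the reads within 1 kb of the TSS that lies downstream of it, in percent, in myoblasts (horizontal) and myotubes (vertical) for H3K4me3 and H3K27ac, with 1 point per gene coloured by role and a line at equal shares. Right, median H3K36me3 in 5 equal parts of the gene with 95% intervals over genes, where the 46 genes in myotubes stay at or under 2.79-fold while their myoblast medians reach 8.45-fold.

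The authors' peaks give a similar picture of narrower H3K4me3. Each of the 46 promoters overlapped an H3K4me3 peak in myoblasts, against 48.7% of all promoters, and the median peak was 2935.5 bp wide (2627 to 3313). In myotubes 42 did so, against 48.9%, and the median width was 1811 bp (1635 to 2175). The 4 without a peak in myotubes were Ccnb2, Mcm2, Mcm3 and Mcm6. Of the 42 genes with a peak in both cell types 40 had the narrower one in myotubes, against 66% of all genes, and the median ratio of widths was 0.627 (0.559 to 0.741) against 0.915. The Mki67 peak was 4463 bp in myoblasts and 886 bp in myotubes, and the Top2a peak 3271 bp and 1278 bp. At Ccnd3, in contrast, the peak was 3863 bp and 4936 bp.

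H3K36me3 was lower along the whole length of the genes. In myoblasts the median of the 46 genes was 2.80-fold in the first of 5 equal parts of the gene, 8.45-fold in the middle part and 7.07-fold in the last. In myotubes it was 0.977-fold, 2.48-fold and 2.33-fold. Over all genes tested the medians were nearly the same in both cell types, 4.99-fold and 4.68-fold in the middle part and 6.28-fold and 6.64-fold in the last. In myoblasts the cell cycle genes were thus above the median tested gene in the middle of the gene, and in myotubes below it.

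Relative to the median gene, H3K4me2 did not follow the other marks. Its level was 34.1-fold (22.6 to 43.8) in myoblasts and 18.7-fold (16.4 to 23.1) in myotubes, but the median gene was lower by about as much, so that the median relative ratio was 1.01 (0.870 to 1.20). Only 2 genes were called lower, Ccnd2 at 0.348 and Cdc20 at 0.489, against 9.13% of all genes, and 3 were called higher, Kif11 at 2.60, Cdk2 at 2.37 and Rrm1 at 2.25, against 8.5%. At equal total reads the median was 0.60, with 15 of 46 genes called lower, against 36.3% of all genes, and none higher, against 2.33%. Scaled by windows of 10 kb outside the authors' peaks it was 0.386, with 32 called lower, against 71% of all genes, and none higher, against 1.31%. Each scaling multiplies every ratio of the mark by the same factor, so direction and size depended on it, while the median of all genes tested moved along, to 0.593 and 0.381.

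The interval of the H3K4me2 ratio lay below 1 at 13 genes (28.3%), against 25.6% of all genes, and above 1 at 13 (28.3%), against 24.4%, so both shares were near those of all genes. Those below included Ccnd1 at 0.515 (0.360 to 0.706), Ccne1, the mitotic genes Plk1 and Cdc20, the latter at 0.489, Cdc6, Cdt1 and Gmnn. Those above included all 4 chromosome and spindle genes, Cenpa at 1.70, Kif11 at 2.60, Top2a at 1.80 (1.14 to 2.88) and Mki67 at 1.90 (1.30 to 2.80), together with Cdk1 at 1.85 (1.36 to 2.54), Ccnb1 at 1.70 and Pcna at 1.74. Scaled by windows outside peaks, Kif11, the highest of them, came to 0.992, so all of them were then below 1. At equal read depth the Mki67 promoter was nearly level for H3K4me2, 15.5-fold and 17.5-fold, and so were Top2a, 11.02-fold and 11.8-fold, Cdk1, 23.2-fold and 25.5-fold, and Ccnb1, 22.9-fold and 23.1-fold, at genes with some of the lowest H3K36me3 ratios. Across the 45 genes with both values, the H3K4me2 and H3K36me3 ratios had a Spearman correlation of -0.351, a description of genes that share their libraries. The largest correlations were 0.625 between H3K4me2 and H3K4me1, over 37 genes, and 0.489 between H3K4me3 and H3K27ac, over 44.

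H3K4me1 was low at these promoters. Its median was 2.57-fold in myoblasts and 3.16-fold in myotubes, and 37 of 46 genes had enough reads. Of these, 8 were called higher against 13% of all genes and 2 lower against 13.2%, with a median ratio of 1.45 (1.03 to 1.78) that was 1.26 at equal total reads and 1.02 with scaling by windows outside peaks. The interval lay above 1 at 9 genes, against 12.2%, and below 1 at 2, against 16.2%. The highest ratios were those of Rrm2, with 7 and 30 reads and a ratio of 4.59 (2.19 to 13.7), Pcna, with 7 and 26 reads and a ratio of 4, and Ccnb2, with 10 and 29 reads and a ratio of 3.23. The lowest were Ccne1 at 0.379, Cdc20 at 0.383 and Gmnn at 0.711 (0.295 to 1.52). In the mean profile H3K4me1 went from 2.58-fold to 3.71-fold in the first 1 kb downstream of the TSS, and from 3.90-fold to 1.87-fold between 1 and 5 kb downstream. Over all promoters tested the same stretches went from 4.06-fold to 3.77-fold and from 3.69-fold to 3.38-fold.

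H3K27me3 was low at these promoters in both cell types, and this was not particular to the set. Median levels in myoblasts and myotubes were 0.547-fold and 0.510-fold for the 46 promoters. They were 0.729-fold and 0.510-fold for the proteasome genes, and 0.911-fold and 0.765-fold for all genes. Over the 46 promoters together H3K27me3 was 0.725-fold in myoblasts, from 183 reads, and 0.660-fold in myotubes, from 119. Only the Ccnd2 promoter, 1 of the 46, had an interval wholly above the genome mean, and it did so in both cell types, against 18.2% and 12.6% of all promoters. Ccnd2 held 23 reads in myoblasts, 4.19-fold (2.66 to 6.29), and 12 in myotubes, 3.06-fold (1.58 to 5.35), and its body stood at 2.01-fold and 1.95-fold. With the surrounding 200 kb as the background, no promoter was above it. The genes with the lowest H3K36me3 ratios were not enriched in it, with Top2a at 0.911-fold and 0.765-fold, Mki67 at 0.911-fold and 0.510-fold and Ccnb1 at 0.547-fold and no read, where 3 reads would give 0.765-fold. At a median of 3 and 2 reads per promoter, the interval lay wholly below the genome mean at 2 promoters in myoblasts and at 6 in myotubes, each of them without a read, against 7.23% and 14.2% of all promoters.

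Genes of the cell cycle outside the set were lower too, but less often than the set for H3K4me3 and H3K27ac. Of 101 further genes, 17 (16.8%) were called lower for H3K4me3, against 43.5% of the 46 genes and 4.56% of all genes. For H3K27ac it was 47 of 97 (48.5%), against 63.6% and 13%. For H3K36me3 it was 65 of 92 (70.7%), against 66.7% and 7.63%. The median ratios of the 101 genes were 0.681, 0.517 and 0.393. Their 36 tested kinetochore and spindle genes had a median H3K36me3 ratio of 0.219 with 31 called lower, and their 33 genes of replication initiation and the fork 0.493 with 17 called lower. In the set of 46 the corresponding medians were 0.127 for chromosome and spindle genes, 0.433 for licensing and 0.486 for fork genes. The H3K4me3 share downstream of the TSS of the 101 genes was 61.4% and 43.5%. The 31 proteasome genes had medians of 1.12 for H3K4me3, 1.03 for H3K27ac and 0.780 for H3K36me3, and 0, 1 and 2 of them were called lower.

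**Figure D5:**
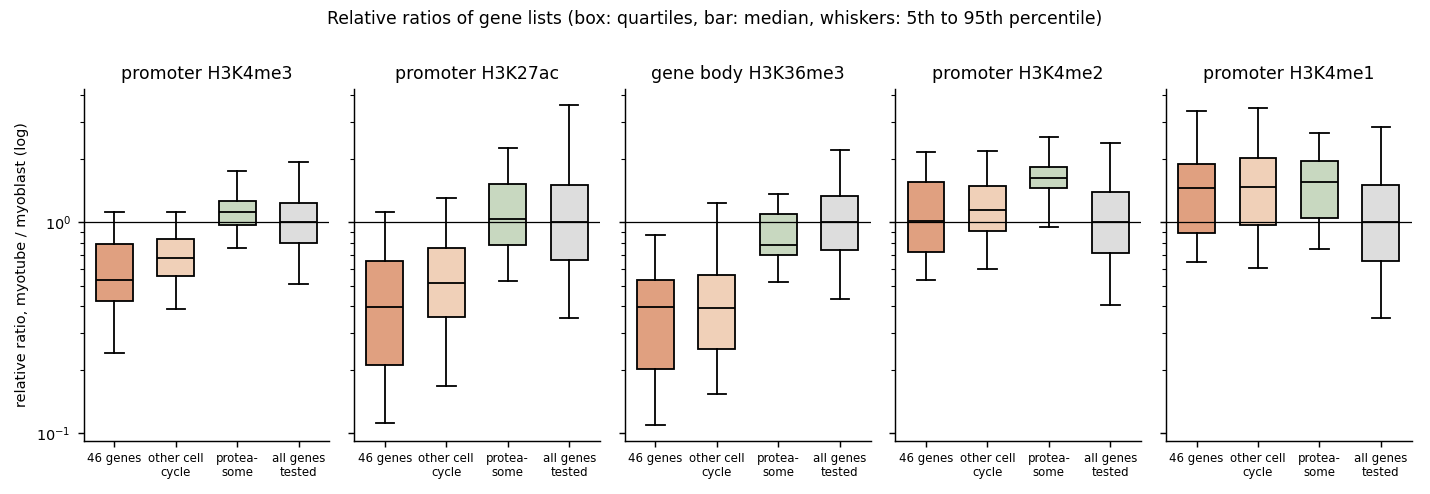
Relative ratio (log axis) of the 46 genes, 101 other cell cycle genes, 31 proteasome genes and all genes tested, for 5 marks, with boxes at the quartiles, a bar at the median and whiskers from the 5th to the 95th percentile. The medians of the 46 genes are 0.533 for H3K4me3, 0.399 for H3K27ac and 0.398 for H3K36me3, under those of the proteasome genes, 1.12, 1.03 and 0.780. For H3K4me2 the median of the 46 genes is near 1, under the 1.63 of the proteasome genes.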

How the data were processed

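ChIP-seq libraries of 6 histone marks in C2C12 myoblasts and myotubes were analysed, 1 library per mark and cell type. The authors aligned the myoblast reads to mm9 with Mosaik and kept unique alignments. For the myotube libraries the labels give mm9, and the aligner and filters are not given in the sources used here. The deposited read files hold 1 line per read of 34 bp, used here as a count of 1. The deposited peak lists hold the score that MACS gave each peak of a library. What was merged into a file, duplicate removal and the MACS settings are not given in the sources used here. Between 0.417% and 3.14% of the reads of a library shared position and strand with another.

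The list deposited with the myoblast H3K27me3 sample was rich in reads of the other mark, 36.4-fold over the genome mean for H3K27ac and 0.804-fold for H3K27me3. In the list that came with the H3K27ac sample these values were 0.588-fold and 6.76-fold. Levels and the main ratios do not use these lists. The alternative scaling of H3K27ac by 10 kb windows outside peaks does, as windows that overlap either list were left out.

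Reads on chromosomes 1 to 19 and X were extended to 150 bp and their midpoints counted. Genes and TSSs came from GENCODE M1, and the TSS of a gene with several was the one with the most H3K4me3 reads over both cell types. Ratios add 1 read to each count. Intervals are exact Poisson for a level, exact conditional binomial for a ratio and order-statistic for a median. Widths are those of the peaks that overlap the 2 kb window.

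The 46 genes and all gene lists and motifs were chosen with earlier results of these data known. The genes named in full are the D-type cyclins, Ccna2, Ccnb1, Cdk1, Mki67, Pcna, Top2a and Mcm2 to Mcm7, and for each mark the 3 lowest and the 3 highest ratios. The promoter sequences follow the H3K27ac ratios, and 1 that this rule takes is not reported here. Others are named by role or after their values were seen. No per-sample columns were left out. Steps were tested on simulated data. Counts and intervals were computed in Python 3.11.15 with scipy 1.17.1, numpy 2.4.6 and pandas 2.3.3, and figures drawn with matplotlib 3.10.9.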

Additional observations from a re-analysis of the deposited data

How the results depend on the processing

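Alternatives changed 1 choice at a time: scaling, added reads, the filter on low counts, the size of a call, read extension, reads per position, the TSS, the gene body, the background and the peak lists. Those on the downstream share of reads, and those without genes that share a promoter or body, were added after the data were seen. No paired analysis was possible because the labels give no replicate numbers and each group holds 1 library. Of the values that describe the set, 144 were counted as kept and 24 as moved. A median was kept when it stayed within its main interval, and a count when it changed by up to 1.5-fold. Kept values could therefore still change in size. For H3K27ac the genes called lower went from 28 to 39 of 44 at equal total reads. For H3K4me3 they went from 20 to 30 of 46 with a call at 1.5-fold. Both were counted as kept. Medians ran from 0.462 to 0.571 for H3K4me3, from 0.224 to 0.467 for H3K27ac and from 0.390 to 0.453 for H3K36me3.

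At equal total reads the median was 0.462 for H3K4me3, 0.60 for H3K4me2, with 15 genes called lower and 0 higher, and 0.227 for H3K27ac, with 0 higher. The shares of all genes called higher were 2.33% for H3K4me2 and 5.19% for H3K27ac. With scaling by 10 kb windows outside peaks the median was 0.386 for H3K4me2, with 32 lower and 0 higher, 1.02 for H3K4me1, with 4 higher, and 0.224 for H3K27ac, with 0 higher. Of all genes, 1.31%, 5.04% and 5.09% were then called higher for these 3 marks. This scaling multiplies every H3K4me2 ratio by the same factor, and those of Rrm1, Cdk2 and Kif11 then came to 0.857, 0.902 and 0.992, below 1. Of all genes 71% were then called lower for H3K4me2, and 36.3% at equal total reads. A call at 1.5-fold gave 8 lower and 12 higher for H3K4me2 and 18 higher for H3K4me1. A minimum of 50 reads left 8 genes for H3K4me1, with 0 lower and 3 higher, and 29 for H3K27ac, with 15 lower. The annotated 5 prime end gave 1 higher for H3K4me3, Ccnd3. The shares of all genes called at 1.5-fold, at a minimum of 50 reads and at the annotated 5 prime end were not computed. Those counts therefore cannot be set against all genes. Over the surrounding 200 kb, 0 promoters in myoblasts and 0 in myotubes lay above the background for H3K27me3. With the myoblast peak lists of H3K27ac and H3K27me3 exchanged, 46 promoters had an H3K27ac peak and 0 an H3K27me3 peak, in place of 0 and 46. Of all promoters, 46.1% overlapped the list deposited with H3K27me3 and 5.02% the list deposited with H3K27ac. The list deposited with H3K27me3 stood at 36.4-fold for H3K27ac reads and 0.804-fold for H3K27me3 reads. The 46 peaks as deposited therefore do not show H3K27me3 at these promoters.

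The myoblast H3K27ac library was the smallest, with 1858771 reads, and the depth of H3K27me3 gave an interval apart from the genome mean at 3 of 46 promoters in myoblasts and 7 in myotubes.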

Other observations

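Among the cell cycle genes outside the set, all 4 of deoxynucleotide synthesis were called lower for gene body H3K36me3, with a median relative ratio of 0.427. For H3K27ac 3 of the 4 were called lower, with a median of 0.366, and for H3K4me3 2 of the 4, with a median of 0.606. The 6 tested genes of condensins and chromatin had a median H3K36me3 ratio of 0.321, with 5 called lower, while none of 8 was called lower for H3K4me3, where their median was 0.668. The 14 genes of CDK adaptors, repair and checkpoints had medians of 0.743 for H3K4me3 and 0.530 for H3K27ac. Of all genes tested, 7.63% were called lower for H3K36me3, 13% for H3K27ac and 4.56% for H3K4me3.

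The 6 genes of the set with another protein-coding TSS within 1 kb, all of them on the opposite strand, had a median H3K4me3 ratio of 0.748, and the 40 others 0.512. For H3K27ac these medians were 0.352 and 0.413. In myotubes 26 of the 46 promoters overlapped an H3K27ac peak, against 42.3% of all promoters.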
